A study of Rattus norvegicus with 6 samples.

Results

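The genes described here are the constitutive subunits of the proteasome and the ubiquitin-conjugating (E2) enzymes measured in rat fibroblasts. They were taken as every gene whose symbol starts with Psma, Psmb, Psmc, Psmd or Ube2 and that had a probe set of its own, without the immunoproteasome genes Psmb8, Psmb9 and Psmb10. That gave 30 genes of 2890, and each was read by its brightest probe set over the 6 arrays. They comprised 6 genes of the alpha ring, 5 of the beta ring, 5 ATPases of the regulatory base, 6 other subunits or assembly chaperones of the regulatory particle, and 8 ubiquitin E2 enzymes. No E2 of a ubiquitin-like protein was among them. RNA came from 208F, an immortal rat fibroblast line, and from FE8, a rat fibroblast line transformed by HRAS. Each line was measured untreated (n = 1) and after 0.3 µM 5-aza-2'-deoxycytidine for 96 h (n = 2), a cytidine analogue that blocks DNA methyltransferases and is called the drug below. Only 1 transformed line was studied and Hras had no probe set among those used, so the oncogene and other differences between the lines cannot be told apart.

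The proteasome is the barrel-shaped protease that degrades most short-lived and misfolded proteins of the cell. Its core is built of outer alpha rings, which gate the entry, and inner beta rings, of which 3 subunits carry the active sites. The regulatory particle on its end binds ubiquitin chains, removes them and unfolds the substrate with a ring of ATPases (Psmc genes), while Psmd genes encode the scaffold, the lid, ubiquitin receptors and assembly factors. E2 enzymes carry activated ubiquitin and, with E3 ligases, place it on the substrate. Subunits of the constitutive particle are made in nearly all cells.

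Signals were deposited as intensities on a linear scale for 4818 tested probe sets. Median signals lay between 354 and 422 per array. All untreated arrays were of chip lot 1 and were scanned in a session of their own, 208F treated replicate 1 was of lot 2, and the other 3 treated arrays were of lot 3. Drug and scan session therefore coincide and cannot be told apart. The ratio of 5' to 3' signal of beta-actin, a sign of RNA quality, was 0.824 in untreated 208F and between 0.351 and 0.529 on the other arrays. That of GAPDH was 0.916 and 0.691 in untreated 208F and FE8 and higher, up to 1.132, on all treated arrays. Of 10 fibroblast markers 9 were measured, and their summed signal in 208F was 107953 untreated and 69152 to 92442 treated, and in FE8 59029 untreated and 48502 to 54758 treated. The fibroblast collagen Col1a1 was at 131 in untreated FE8 and 22282 in untreated 208F. The 3 epithelial markers measured of 6 (Krt8, Krt18, Epcam) summed to 145 to 168 on untreated and 3039 to 4418 on treated arrays. Most of the treated sum was Krt8 (2825 to 4077), with Krt18 at 116 to 172 and Epcam at 45 to 335. The 3 skeletal muscle markers measured of 5 summed in 208F to 386 untreated and 2047 to 2587 treated, and in FE8 to 35 untreated and 412 to 598 treated. Endothelial (Kdr, 2 to 84) and nerve cell markers (2 genes, sum 82 to 344) stayed low, and no leukocyte marker was measured. The part of session, RNA quality and these markers in the differences below was not tested. In bulk RNA, fewer cells making a transcript and less of it per cell cannot be told apart.

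**Figure D1:**
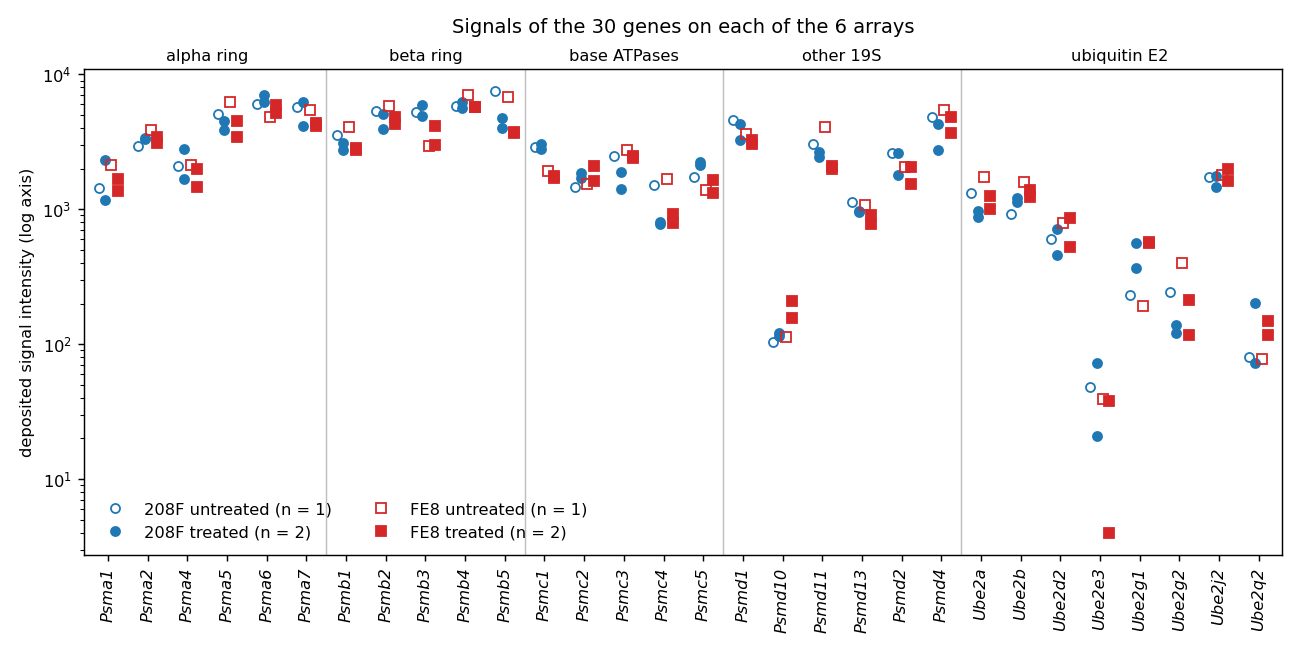
Signal intensity (vertical, log axis) of each of the 30 genes (horizontal, by role) on each array, with circles for 208F, squares for FE8, open for untreated (n = 1) and filled for treated (n = 2). Each gene is shown by its brightest probe set. Psmb4 has the narrowest spread, from 5632 to 6989, while Ube2e3 lies at 4 to 73.

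Across the 6 arrays most proteasome and E2 genes varied by less than 1 log2 unit on the scale log2(signal + 64), on which all differences below are given. The range from the lowest to the highest array had a median of 0.82 over the 30 genes, against 0.97 over all tested probe sets, and 24 of 30 genes stayed within 1 log2 unit, against 52.1% of all probe sets and 54.2% of those with a mean signal of at least 1000. The narrowest range was that of Psmb4, a beta ring subunit without an active site, at 0.31, with signals from 5632 to 6989. This held for its brightest probe set only, as its other 2 probe sets ran from 4268 to 6564 and from 2809 to 7281. Among the brightest probe sets the widest range was that of Ube2g2, the E2 that serves degradation of proteins from the endoplasmic reticulum, at 1.38. Duplicate arrays of the 30 genes differed by a median of 0.24 in treated 208F and 0.23 in treated FE8, against 0.30 and 0.27 over all probe sets. The plot of signals by array shows this as tight columns for most core subunits. The median of the mean signals was 2068 over the 30 genes and 403 over all probe sets. These shares are descriptions and were not tested. Signals of different probe sets do not rank genes by transcript number.

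The question of the study was which genes change when DNA is demethylated in immortal and in HRAS-transformed fibroblasts. In FE8 (treated n = 2, untreated n = 1), 2 of the 30 genes passed the test, Psmd11 lower and Ube2g1 higher, and 28 did not. Psmd11 encodes a lid subunit that joins the lid to the rest of the proteasome. Its signal in FE8 was 4096 untreated and 1995 and 2101 treated, a log2 difference of -0.98 ± 0.26 (SE; 1.97-fold lower, adjusted p = 0.042 in limma). In 208F it was 3068 untreated and 2666 and 2437 treated, a difference of -0.26 ± 0.26 that did not pass (adjusted p = 0.68). Untreated FE8 was therefore the highest array for Psmd11 and treated FE8 the lowest group, with no overlap between any of the groups. Its probe set carries the suffix _s, which marks sequence that may be shared between transcripts.

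Ube2g1, an E2 that extends ubiquitin chains, was in FE8 at 191 untreated and 564 and 574 treated. The log2 difference was 1.31 ± 0.36 (2.48-fold higher, adjusted p = 0.045 in limma). In 208F its signal was 231 untreated and 368 and 558 treated, 0.81 ± 0.36, which did not pass (adjusted p = 0.26). All 4 treated arrays lay above both untreated arrays. The second Ube2g1 probe set stood at 231 to 504 across the arrays and at 0.87 ± 0.33 in FE8 (adjusted p = 0.15). Both calls rested on little: Psmd11 was lost in 7 of 13 alternative settings (adjusted p from 4.6e-04 to 0.33) and Ube2g1 in 9 of 14 (0.0054 to 0.26), both of them without FE8 treated replicate 1 (0.33 and 0.26) or replicate 2 (0.23 and 0.21). Over all 4818 probe sets 8.16% passed in FE8, 5.06% higher and 3.09% lower, so 2 of 30 is no larger a share than among all genes.

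**Figure D2:**
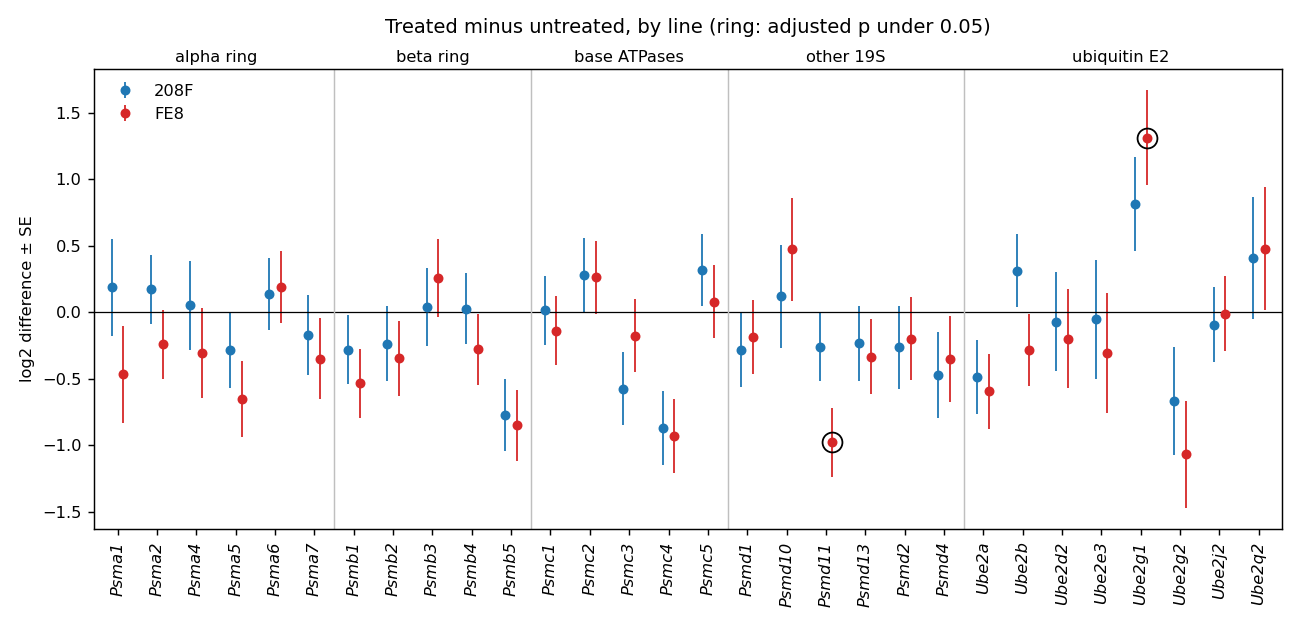
Log2 difference between treated and untreated arrays with its standard error (vertical) for each gene (horizontal, by role), blue for 208F and red for FE8. Rings mark adjusted p under 0.05, which only Psmd11 (-0.98) and Ube2g1 (1.31) in FE8 reach, while Psmb5 and Psmc4 lie between -0.77 and -0.93 in both lines.

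In 208F (treated n = 2, untreated n = 1) none of the 30 genes passed with limma, where 5.19% of all probe sets did (3.59% higher, 1.6% lower), and 3 had an unadjusted p under 0.05. The 3 were Psmb5 and Psmc4 on the lower side and Ube2g1 on the higher. Without 208F treated replicate 1, 3 genes passed lower, Psmb5 (-0.90), Psmc3 (-0.76) and Psmd4 (-0.78), and none passed without any of the other treated arrays. The 95% interval of a drug difference had a median half-width of 0.62 log2 over the 30 genes in both lines. That interval is not adjusted for the number of probe sets, and passing the adjusted threshold took larger differences. Psmc4, at -0.87 in 208F and -0.93 in FE8, did not pass, so a gene that did not pass may still have changed by more than 0.62.

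Psmb5 and Psmc4 had the lowest values among core and base subunits in both lines without passing in either. Psmb5 carries the chymotrypsin-like active site, the main target of proteasome inhibitor drugs. In 208F its signal was 7491 untreated and 4757 and 3995 treated, and in FE8 6745 untreated and 3683 and 3744 treated. Both untreated arrays were above all 4 treated arrays. The differences were -0.77 in 208F (95% interval -1.36 to -0.18, adjusted p = 0.14 in limma) and -0.85 in FE8 (-1.44 to -0.26, adjusted p = 0.081). Its other 2 probe sets gave -0.73 and -0.65 in 208F and -0.59 and -0.80 in FE8, so all 3 were on the lower side. Psmc4, an ATPase of the base, was in 208F at 1505 untreated and 805 and 784 treated, and in FE8 at 1681 untreated and 787 and 924 treated. Here too the untreated arrays stood clear of all treated arrays, with -0.87 in 208F (interval -1.48 to -0.26, adjusted p = 0.11) and -0.93 in FE8 (-1.54 to -0.31, adjusted p = 0.068). When probe sets were averaged per gene, Psmc4 passed in FE8 (adjusted p = 0.046 in limma). In FE8, Psmb5, Psmc4 and the alpha ring gene Psma5 passed (5 genes in all with Psmd11 and Ube2g1) without 208F treated replicate 1 or without 208F treated replicate 2. Those arrays enter this comparison only through its error, and without FE8 treated replicate 1 or 2 none of the 3 passed (adjusted p from 0.21 to 0.71).

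The promoters of these 4 genes are given because the drug blocks DNA methyltransferases, which methylate CpG sites, and these are the genes with the smallest p in FE8. Each sequence is the 250 bases before the RefSeq start in build GRCr8, 5′ to 3′ on the gene's strand, with CpG sites in capitals. Psmd11 is at chr10:65932093-65932342 (+), Ube2g1 at chr10:57724258-57724507 (+), Psmb5 at chr15:32047380-32047629 (-) and Psmc4 at chr1:92485061-92485310 (-).
Psmd11 promoter: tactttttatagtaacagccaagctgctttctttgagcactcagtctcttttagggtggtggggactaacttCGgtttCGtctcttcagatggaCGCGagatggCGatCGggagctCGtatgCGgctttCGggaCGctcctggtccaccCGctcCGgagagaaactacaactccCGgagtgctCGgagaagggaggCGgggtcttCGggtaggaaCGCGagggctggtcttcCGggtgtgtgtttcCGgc
Ube2g1 promoter: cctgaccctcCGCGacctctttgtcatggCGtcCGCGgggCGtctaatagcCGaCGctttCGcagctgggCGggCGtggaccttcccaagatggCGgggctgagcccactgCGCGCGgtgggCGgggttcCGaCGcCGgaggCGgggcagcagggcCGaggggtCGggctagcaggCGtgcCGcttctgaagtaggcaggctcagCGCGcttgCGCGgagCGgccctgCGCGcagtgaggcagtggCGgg
Psmb5 promoter: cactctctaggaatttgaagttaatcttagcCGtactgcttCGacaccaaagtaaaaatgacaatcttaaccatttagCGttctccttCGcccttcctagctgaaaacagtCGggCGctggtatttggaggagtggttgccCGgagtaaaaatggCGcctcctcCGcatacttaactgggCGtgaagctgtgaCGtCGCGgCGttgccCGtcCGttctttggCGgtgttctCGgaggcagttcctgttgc
Psmc4 promoter: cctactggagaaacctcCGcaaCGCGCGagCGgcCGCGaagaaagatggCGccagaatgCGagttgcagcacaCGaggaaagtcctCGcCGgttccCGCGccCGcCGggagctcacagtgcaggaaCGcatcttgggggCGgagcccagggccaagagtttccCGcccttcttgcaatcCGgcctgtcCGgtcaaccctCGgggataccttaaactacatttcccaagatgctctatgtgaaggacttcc
They hold 20, 32, 18 and 22 CpG sites in that order, so the gene with the higher signal and those with lower signals all have CpG-dense windows. Their methylation was not analysed here.

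A window was found for 29 of the 30 genes, and 28 of these held 10 or more CpG sites, against 74.4% of the 2432 array genes with a window and 38.4% of all 27457 windows. E2 windows held a median of 29.5 CpG sites and proteasome windows 15. Searched on both strands of the same 250 bases, the CCAAT box was in 15 of 29 windows (51.7%, against 36.8% of array genes and 34.3% of all windows). The letters TGACNNNGC, the core of the antioxidant response element through which proteasome genes can be induced, were in 6 (20.7%, against 13.4% and 10.2%). These were 3 of 21 proteasome windows (14.3%, near the share of array genes) and 3 of 8 E2 windows (37.5%). TTTGAA, the letters of an element found in cell cycle genes, was in 5 (17.2%, against 9.0% and 16%). Psmb5 held TGACNNNGC and TTTGAA, Ube2g2 held TGACNNNGC at 3 places, and the Psmd11, Ube2g1 and Psmc4 windows held none of the 3. These matches are letters in a window and say nothing of a factor's binding.

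Most of the 30 genes lay on the lower side under the drug. The median log2 difference was -0.28 in FE8, against 0.08 over all tested probe sets, and -0.08 in 208F, against 0.11. In FE8, 23 of 30 were below 0, against 44.3% of all probe sets, and in 208F 17 of 30, against 41.3%. The SD of the group's median log2 signal between duplicates was 0.24, near the size of the FE8 median difference. By array, the group's median signal for FE8 was 1622 and 2032.5 after the drug, beside 2083.5 without it. For 208F it was 1834.5 and 2370.5 after the drug, beside 2276.5 without it. With 1 untreated array per line, these median differences are not shown to exceed the spread between arrays. Brighter probe sets were more often lower on treated arrays. Among the 1263 with a mean signal of at least 1000 the median was -0.13 in FE8, with 57.8% below 0, beside -0.28 and 19 of 23 for the genes of the group in that range. Both treated FE8 arrays were below the untreated array for 20 of 30 genes, against 34.1% of all probe sets. In the brighter range this held for 17 of 23 genes, against 50.3%. In 208F it held for 12 of 30 genes, against 29.9%, and for 10 of the 23 brighter genes, against 43.8%. The share of brighter genes in 208F was therefore near that of bright probe sets. On the higher side, both treated arrays were above the untreated for 7 of 30 genes in 208F (44.1% of all probe sets) and 6 of 30 in FE8 (42.9%), and for 4 genes in both lines (Psma6, Psmc2, Psmd10 and Ube2g1, against 28.5%). All treated arrays of both lines were below their untreated array for 12 of 30 genes (Psma5, Psmb1, Psmb2, Psmb5, Psmc3, Psmc4, Psmd1, Psmd11, Psmd13, Psmd4, Ube2a and Ube2g2), against 19.1% of all probe sets. Among those with a mean signal of at least 1000 it was 10 of 23 genes, against 33.3%. Another scaling moved these medians: after quantile normalization the median of all probe sets went from 0.11 to -0.03 in 208F and from 0.08 to -0.04 in FE8, and that of the 30 genes relative to all from -0.20 to -0.08 in 208F and from -0.36 to -0.17 in FE8.

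**Figure D3:**
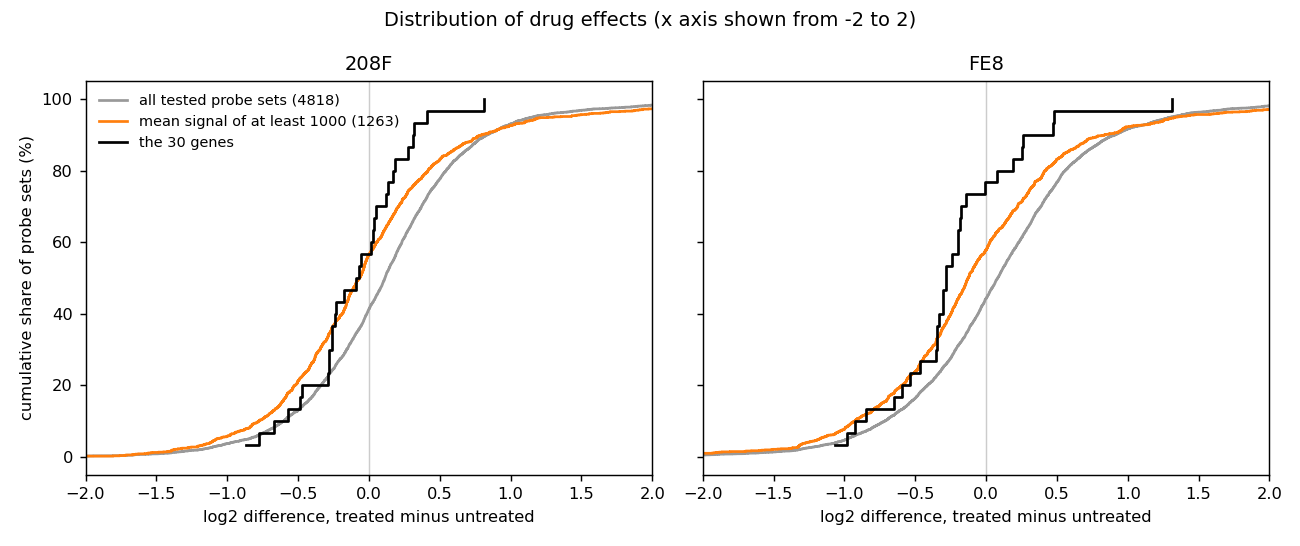
Cumulative share (vertical, percent) of probe sets by log2 difference between treated and untreated arrays (horizontal), in 208F and FE8, for all tested probe sets (grey), those with a mean signal of at least 1000 (orange) and the 30 genes (black). In FE8 the black curve crosses 0 at 23 of 30 genes and the grey at 44.3%, while in 208F it follows the orange curve at 0.

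By role, the alpha ring had a median of -0.33 in FE8 and 0.09 in 208F. Psma5 was its lowest member in FE8, at 6240 untreated and 3455 and 4503 treated (-0.65 ± 0.28, adjusted p = 0.21 in limma), and at 5110 untreated and 3841 and 4546 treated in 208F (-0.29 ± 0.28). Its second probe set was on the other side in 208F (0.18 ± 0.26). Psma1 had its treated 208F duplicates at 1171 and 2304, on either side of the untreated 1438, and lay at 2115 untreated and 1366 and 1673 treated in FE8 (-0.47 ± 0.36), where its dim second probe set stood at 0.27. Psma2 was at 2956 untreated and 3367 and 3311 treated in 208F, and at 3869 untreated and 3125 and 3415 treated in FE8, differences of 0.17 ± 0.26 and -0.24 ± 0.26. Psma6 was the only alpha ring gene with treated arrays above the untreated in both lines, by 0.14 and 0.19. Duplicates of treated 208F differed by 0.94 for Psma1, 0.71 for Psma4 and 0.59 for Psma7.

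The beta ring had a median of -0.35 in FE8 and -0.24 in 208F. Besides Psmb5, the non-catalytic subunit Psmb1 was at 4068 untreated and 2836 and 2742 treated in FE8 (-0.53 ± 0.26, adjusted p = 0.27), and at 3545 untreated and 3089 and 2736 treated in 208F (-0.28 ± 0.26). Psmb2, another subunit without an active site, was at -0.35 in FE8 and -0.24 in 208F. Psmb4 differed by -0.28 in FE8 and 0.03 in 208F by its brightest probe set. Its other 2 probe sets gave -0.07 and 0.76 in FE8, and the mean of all 3 there was 0.13. Psmb3 was the only beta ring gene with a value above 0 in FE8, 0.26 ± 0.29, with signals of 2936 untreated and 2998 and 4127 treated.

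Among base ATPases the median was -0.14 in FE8 and 0.01 in 208F, and members went both ways. Psmc3 was at 2463 untreated and 1875 and 1424 treated in 208F (-0.57 ± 0.28, adjusted p = 0.32) and at 2759 untreated and 2490 and 2382 treated in FE8 (-0.18 ± 0.28). Psmc5 was above 0 in both lines (0.32 and 0.08) and so was Psmc2 (0.28 and 0.26). The second probe set of Psmc2 was higher in treated FE8 by 1.03 ± 0.28 (adjusted p = 0.047), at 647 untreated and 1259 and 1532 treated, and this gene's probe sets therefore differ in whether they pass. Over all 49 probe sets of the 30 genes, 3 passed in FE8, 2 higher and 1 lower. Among all tested probe sets 8.16% did, 5.06% higher and 3.09% lower, so this is no larger a share.

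The other regulatory subunits had a median of -0.26 in FE8 and also in 208F, with 5 of 6 below 0 in each line. Psmd4, a ubiquitin receptor, was at 4801 untreated and 4301 and 2764 treated in 208F (-0.47 ± 0.32) and at 5404 untreated and 3655 and 4870 treated in FE8 (-0.35 ± 0.32), but its second probe set lay at 0.66 and 0.13 and the third at -0.32 and -0.14. The scaffold subunits Psmd1 and Psmd2 were between -0.29 and -0.18 in both lines, and the lid subunit Psmd13 at -0.23 in 208F and -0.33 in FE8. The third probe set of Psmd1 was further down in both lines, at -0.84 ± 0.30 in 208F and -1.06 ± 0.30 in FE8. It passed in neither (adjusted p = 0.15 and 0.054 in limma). Psmd10, an assembly chaperone also known as gankyrin, was the exception above 0, at 113 untreated and 210 and 156 treated in FE8 (0.47 ± 0.39), with signals not far above the pseudocount of 64, which holds down the size of a log2 difference.

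For E2 enzymes the median was -0.24 in FE8 and -0.06 in 208F, and they held the lowest and the highest value of all 30 genes in FE8. The highest was Ube2g1 and the lowest Ube2g2, at 403 untreated and 116 and 212 treated (-1.07 ± 0.40, adjusted p = 0.15), with 243 untreated and 139 and 120 treated in 208F (-0.67 ± 0.40, adjusted p = 0.44). Untreated arrays of Ube2g2 lay above all treated arrays. Ube2a and Ube2b are close relatives that act with ligases in DNA damage tolerance. Ube2a was at 1725 untreated and 1008 and 1247 treated in FE8 (-0.59 ± 0.28, adjusted p = 0.26), and at 1317 untreated and 880 and 964 treated in 208F (-0.49 ± 0.28). Ube2b was at -0.28 ± 0.27 in FE8 and 0.31 ± 0.27 in 208F, and its second probe set at 0.13 in both lines. Ube2d2, an E2 that works with many ligases, and the membrane-anchored Ube2j2 lay between -0.20 and -0.01. Ube2q2 (73 to 203) and Ube2e3 (4 to 73) were near the pseudocount, and Ube2e3 gave no resolvable difference (-0.31 ± 0.45 in FE8).

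Whether the drug acted differently in FE8 and 208F was tested by the difference between the drug effects. None of the 30 genes passed in limma and none had an unadjusted p under 0.05, where 0.0623% of all probe sets passed. The largest differences were -0.72 for Psmd11 (adjusted p = 0.75) and -0.65 for Psma1, and the median 95% half-width was 0.87, so the higher count in FE8 is not shown to differ from that in 208F. Across the 30 genes the drug effects in 208F and FE8, which share no array, correlated with Pearson's r = 0.80 (Spearman's 0.69), against 0.63 (0.57) over all probe sets. For the 22 proteasome genes without the E2 enzymes it was 0.68 (0.59), near the value over all probe sets. Both effects set treated arrays against untreated arrays of the first session, and genes are not independent replicates.

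The lines were compared with each other on treated arrays, FE8 (n = 2) against 208F (n = 2), where both sides had duplicates. None of the 30 genes passed in limma, where 7.08% of all probe sets did (3.42% higher, 3.65% lower), and 4 had an unadjusted p under 0.05. They were Psmc1, Psmb3 and Psmc5, lower in FE8, and Psmc3, higher. Psmc1, a base ATPase, was at 1709 and 1762 in treated FE8 and 3039 and 2804 in treated 208F, -0.73 (95% interval -1.19 to -0.26, adjusted p = 0.067). Untreated arrays had the same order, at 1916 in FE8 and 2890 in 208F (-0.58 ± 0.30), so all FE8 arrays were below all 208F arrays. Psmc1 passed in 2 of 13 alternative settings (adjusted p from 0.016 to 0.45), without 208F treated replicate 2 (0.016) and when probe sets were averaged per gene (0.045). The first sets FE8 arrays of chip lot 3 against the 208F array of lot 2, and within lot 3 Psmc1 did not pass (-0.67, adjusted p = 0.059). Psmc5 was at 1316 and 1635 in treated FE8 and 2119 and 2242 in treated 208F (-0.55 ± 0.22, adjusted p = 0.22). Psmc3 was at 2490 and 2382 against 1875 and 1424 (0.56 ± 0.23, adjusted p = 0.22), and passed without 208F treated replicate 1, that is within chip lot 3 (0.75, adjusted p = 0.026).

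Psmb3 was at 2998 and 4127 in treated FE8 and 5926 and 4894 in treated 208F (-0.61 ± 0.24, adjusted p = 0.20). Without the drug it was at 2936 in FE8 and 5242 in 208F (-0.82 ± 0.34, adjusted p = 0.25), and its second probe set gave -0.997 ± 0.31 there and -0.25 ± 0.22 on treated arrays. All 3 FE8 arrays were below all 3 208F arrays. On treated arrays Psmb3 passed in 1 of 14 alternative settings (adjusted p from 0.0094 to 0.79), that without 208F treated replicate 2, which compares different chip lots, and within lot 3 it was at -0.47 (adjusted p = 0.20). On untreated arrays leaving out a treated array changed only the error, and the adjusted p was 0.015 and 0.013 without 208F treated replicate 1 and 2 and 0.46 without either FE8 treated replicate. Treated arrays of the lines did not overlap for 12 of 30 genes, 7 lower and 5 higher in FE8, against 42.1% of all probe sets (21.5% lower, 20.7% higher), which is near the background. The median over the 30 genes was -0.05, against 0.00 over all probe sets, with a median 95% half-width of 0.50. By their brightest probe sets all 6 alpha ring genes were below 0 (-0.33 to -0.03) and 7 of 8 E2 genes above (up to 0.29, Ube2g1). None passed the threshold, and 50.1% of all probe sets were below 0. Another probe set lay above 0 for Psma2 (0.065 ± 0.25) and Psma5 (0.05 ± 0.21). Other probe sets of Psma1 (-0.001), Psma2 (-0.11) and Psma7 (-0.32) lay below 0.

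**Figure D4:**
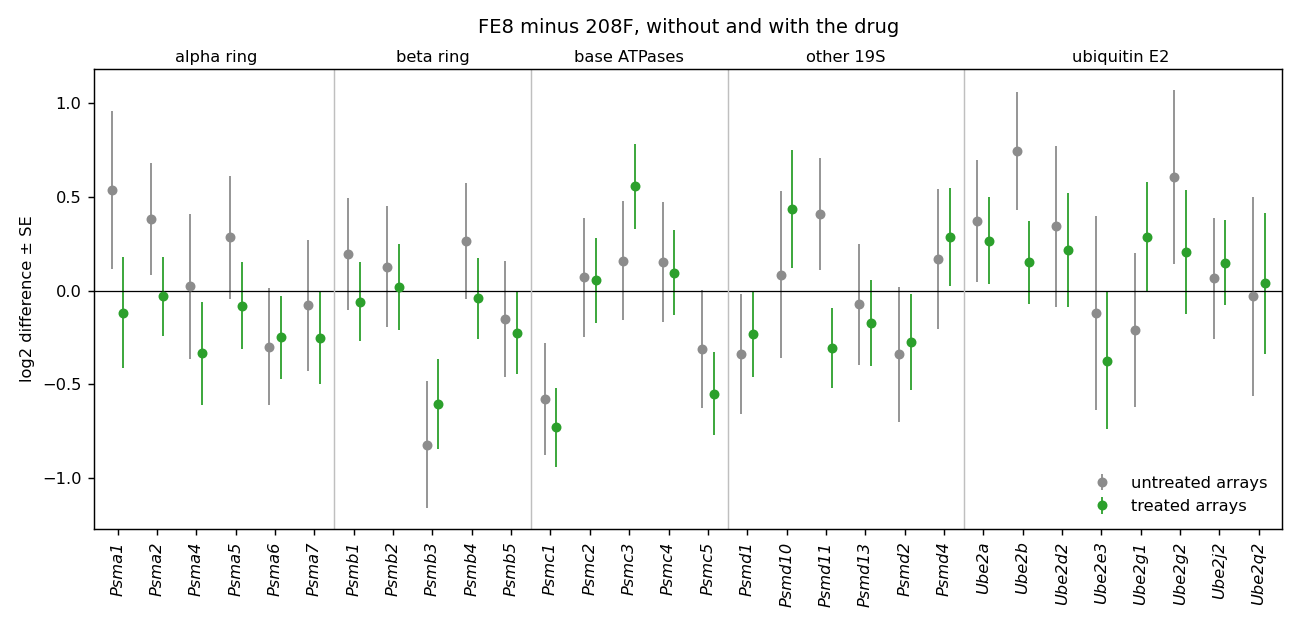
Log2 difference between FE8 and 208F with its standard error (vertical) for each gene (horizontal, by role), grey for untreated arrays (1 against 1) and green for treated arrays (2 against 2). No gene passed in either comparison. Psmb3 (-0.82 and -0.61) and Psmc1 (-0.58 and -0.73) lie lowest in both.

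Without the drug, untreated FE8 against untreated 208F (1 array each, with the error taken from treated duplicates) again gave none of the 30 genes past the threshold in limma, where 5.92% of all probe sets passed (3.09% higher, 2.82% lower). Unadjusted p was under 0.05 for 2, Psmb3 and Ube2b. Ube2b was higher in FE8 with 1598 against 927 (0.75 ± 0.31, adjusted p = 0.26), a size that was 0.15 ± 0.22 on treated arrays. The median was 0.08, against 0.02 over all probe sets. By their brightest probe set all 30 genes lay within 1 log2 unit, as did 87.3% of all probe sets. Of the 49 probe sets of these genes 48 did. Psmb4 was at 0.265 by its brightest probe set and at -0.25 and -1.04 by its other 2. Psma1 (0.54 ± 0.42), Ube2g2 (0.60 ± 0.46) and Psmd11 (0.41 ± 0.30) were among the higher values. Differences between the lines on untreated and on treated arrays, which share no array, had the same sign for 21 of 30 genes, against 64.9% of all probe sets.

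Other genes of the ubiquitin and proteasome pathway were taken from lists that the rule for the 30 genes does not use. Of 7 measured proteasome activators, regulators and assembly factors, 1 passed on treated arrays of the lines, where 7.08% of all probe sets did, and none in the other comparisons. This was Psme2, a subunit of the interferon-inducible activator cap, at 1794 and 2559 in treated FE8 and 1124 and 1093 in treated 208F (0.91 ± 0.24, adjusted p = 0.042 in limma), and at 2077 against 1125 untreated (0.85 ± 0.34, adjusted p = 0.23). Its partner Psme1 was at -0.08 ± 0.33, and the assembly factor Pomp at -0.57 ± 0.29 in 208F under the drug. The list of E3 ligases and their subunits, which also holds the E2 Cdc34, had 15 measured genes. Under the drug 3 of them passed higher in FE8 and 1 in 208F, and none passed lower. Over all probe sets 5.06% passed higher in FE8 and 3.59% in 208F, and 3.09% and 1.6% passed lower. Below 0, passing or not, were 6 of the 15 in FE8 and 7 in 208F. Mdm2, the ligase of p53, rose in FE8 from 1863 to 5016 and 4388 (1.30 ± 0.26, adjusted p = 0.012) and in 208F from 1158 to 2828 and 3112 (1.31 ± 0.26, adjusted p = 0.015). Nedd4, a ligase of membrane proteins, rose in FE8 from 1395 to 3294 and 3524 (1.25 ± 0.26, adjusted p = 0.013) and stood at 0.96 ± 0.26 in 208F (adjusted p = 0.059). Vhl, the substrate receptor for hypoxia-inducible factors, rose in FE8 from 568 to 1164 and 1284 (1.03 ± 0.28, adjusted p = 0.0496). Anapc5, a subunit of the anaphase-promoting ligase, was at -0.88 ± 0.26 in FE8 without passing (adjusted p = 0.068).

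Of 4 deubiquitinases, 1 passed under the drug in FE8 and 1 in 208F, where 8.16% and 5.19% of all probe sets passed. Both times it was Brcc3, from 6 to 329 and 330 in FE8 (2.49 ± 0.44, adjusted p = 0.0052 in limma) and from 3 to 194 and 401 in 208F (2.37 ± 0.44, adjusted p = 0.0094), sizes that the pseudocount holds down. Uchl1, the neuronal deubiquitinase, was at 1.41 ± 0.40 in FE8 (adjusted p = 0.055). None of the 8 shuttle, segregase and signalosome genes passed in any comparison, with the cofactor Ubxn1 nearest at 0.79 ± 0.21 between treated lines (adjusted p = 0.052). Neither did Nae1 and Nedd8, the 2 measured genes of the group of ubiquitin, its relatives and E1 enzymes. Of the immunoproteasome genes left out by the rule, Psmb8 was in 208F at 29 untreated and 686 and 545 treated (2.86 ± 0.31, adjusted p = 3.6e-04), and in FE8 at 999 untreated and 1303 and 1429 treated (0.43 ± 0.31, adjusted p = 0.49). Psmb9, the other measured, was in 208F at 250 untreated and 348 and 578 treated (0.71 ± 0.38, adjusted p = 0.38), and in FE8 at 637 untreated and 775 and 1212 treated (0.56 ± 0.38, adjusted p = 0.46). The constitutive counterpart of Psmb8, Psmb5, was at 7491, 4757 and 3995, 6745, and 3683 and 3744 on the same arrays, values of different probe sets that are given side by side and not compared in size.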

How the data were processed

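Biotinylated cRNA of 6 RNA samples was hybridised to Affymetrix rat U34 arrays. Values were deposited as a linear intensity for each probe set, made with MAS5 per the submitters' processing notes, which give no version. The filter that left 4847 probe sets is not given in the sources used here. Without 29 control probe sets 4818 were tested. Of these, 3956 had 1 gene in the platform annotation, 207 several and 655 none, and 3942 took their symbol through the gene identifier. Signals were transformed as log2(value + 64), 64 being their 10th percentile, and fitted with limma 3.58.1 in R 4.3.3 (4 group means, intensity trend, 2 residual and 9.02 prior degrees of freedom), 2-sided. P-values of a comparison were adjusted by Benjamini-Hochberg over all 4818 probe sets, with a threshold of 0.05. Errors are standard errors and folds are on the log2(value + 64) scale. Untreated groups (n = 1) took their error from the treated duplicates. The labels do not say whether duplicates were separate cultures, so p-values reflect only how far these samples spread, and that spread may be technical. Precision is limited by the number of arrays.

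The fit was checked on simulated data. Named genes were every called member, up to 3 per role by absolute difference, the dimmest and the brightest member, and up to 4 per pathway list. The members and lists were chosen with earlier results of these data known. Promoter windows are from RefSeq (GRCr8). Alternatives were a lower and a higher pseudocount, quantile and 75th percentile scaling, median centring (chosen after seeing the data), a mean signal of at least 200, other probe sets, no trend, each treated array left out, and a replicate block. Same-numbered treated arrays of the lines deviated together (r = 0.32), but with 2 pairs and no label tying the numbers they were not treated as paired.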

Additional observations from a re-analysis of the deposited data

How the results depend on the processing

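The number of the 30 genes past the threshold depended on the settings in the FE8 drug effect. It was 2 as reported, 1 with the higher pseudocount, 1 after 75th percentile scaling, 0 after quantile normalization, 0 without the trend, 0 with the arrays centred on the median, and 0 with the replicate block, that is with same-numbered treated arrays paired. The block changed no other count of these genes. Leaving out a treated array gave 0 to 5 genes in FE8, 0 to 3 in 208F (3 without 208F treated replicate 1), 0 to 2 between treated lines, 0 to 1 between untreated lines and 0 for the difference between drug effects. Between treated lines 1 gene (Psmc1) passed when probe sets were averaged per gene. In the FE8 drug effect that setting brought Psmc4 past the threshold (adjusted p = 0.046 in limma) and lost Ube2g1 (0.054). With the second brightest probe set the FE8 count was again 2, with Psmc2 in place of Ube2g1. Medians over the 30 genes moved in every setting by less than the SD of their median signal between duplicates (0.24). That SD is near the size of the FE8 median drug effect (-0.28) and above that of 208F (-0.08). Staying below it therefore does not show that these medians are stable. The FE8 median ran from -0.34 to -0.19 when a treated array was left out.

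Among differences of named genes larger than their standard error, some changed sign. With the second brightest probe set, drug effects were 0.27 for Psma1, 0.13 for Psmd4 and 0.12 for Ube2b in FE8, and 0.18 for Psma5 and 0.66 for Psmd4 in 208F. With probe sets averaged, Psmb4 was at 0.13 in FE8. Psmd4 between treated lines ranged from -0.027 (without 208F treated replicate 2) to 0.599 (without 208F treated replicate 1). The cause was not tested.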

Other observations

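Probe sets that the annotation assigns to several genes of these families were outside the 30 genes. The probe set shared by Psma3 and Psma3l, of the alpha ring, was in 208F at 4494 untreated and 3956 and 4081 treated, and in FE8 at 4666 untreated and 3248 and 3576 treated. The brighter of those shared by Psmb6, which carries the caspase-like active site, and Psmb6l1 was in 208F at 2067 untreated and 2004 and 1687 treated, and in FE8 at 1821 untreated and 1789 and 1889 treated. The dimmer was at 1394, 1745 and 1307, 899, and 2042 and 1603 in the same order. The probe set of Ube2d2 and Ube2d3 was at 244, 239 and 459, 364, and 515 and 358.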
